A study of Mus musculus with 50 samples.

Results

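The genes described here are 10 members of the family of regulators of G protein signaling (RGS proteins), *Rgs2*, *Rgs3*, *Rgs4*, *Rgs7*, *Rgs8*, *Rgs9*, *Rgs10*, *Rgs14*, *Rgs16* and *Rgs20*. They were chosen by symbol, and each was listed in both deposited tables of counts, among 24552 genes in all and among 21 genes whose symbol is Rgs and a number. RNA was measured in the nucleus accumbens (NAc) with RiboTag (RT), in which a Cre recombinase switches on an HA-tagged ribosomal protein, so that an antibody against HA precipitates the ribosomes of the Cre cells together with their mRNA (IP samples), whereas input samples hold the RNA of all cells. C57BL/6 mice of 8 to 12 weeks carried RT with D1-Cre or with D2-Cre, which mark medium spiny neurons (MSNs) with dopamine D1 or D2 receptors, and they were undefeated controls (Con) or had met an aggressor for up to 10 days, 10 min a day by the labels (the paper's methods give a shorter time), and were then sorted by social interaction into resilient (Res) and susceptible (Sus) mice. There were 13 D1-IPs (4 Con, 4 Res, 5 Sus), 15 D2-IPs (5 of each stress group) and 18 inputs (3 of each stress group in each line). A further 4 D1-IP libraries labelled Sirt1-KO came from male mice without social defeat that carried RT, floxed *Sirt1* and D1-Cre, with no age given. They were compared with the same 4 D1 Con libraries, whose counts stand in both tables. Each library pooled the tissue of 2 mice. D1-Cre and D2-Cre were BAC transgenes, and Cre driven by the *Drd2* promoter is also active in cholinergic interneurons, which make D2 receptors.

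RGS proteins bind the active, GTP-bound alpha subunit of a heterotrimeric G protein and speed its hydrolysis of GTP, which ends the signal of the receptor. In the striatum they set how long signals of dopamine, opioid, adenosine and muscarinic receptors last, and RGS9 is known there as a brake on D2 and mu opioid receptor signals. The 10 genes fall into 4 subfamilies. *Rgs2*, *Rgs3*, *Rgs4*, *Rgs8* and *Rgs16* belong to R4, small proteins with little beyond the RGS domain, of which RGS2 prefers Gq. *Rgs7* and *Rgs9* belong to R7, whose proteins are stable only in a complex with the beta subunit GNB5. *Rgs10* and *Rgs14* belong to R12, where RGS14 also binds inactive Gi subunits, and *Rgs20* belongs to RZ, whose proteins act on Gz and Gi.

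The counts on genes summed to 21591075 to 31009626 in the 28 IPs, 18384265 to 28179940 in the 18 inputs and 22174187 to 31785984 in the 4 libraries labelled Sirt1-KO. Values are given as CPM, counts per 1e6 counts on genes after TMM normalization. All 10 genes passed the filter on low counts in each comparison. The IPs matched their labels by markers, since 4 of 4 D1-MSN markers were higher and 4 of 4 D2-MSN markers lower in D1-IPs than in D2-IPs. D2-MSN markers were nonetheless above input in D1-IPs, with a median sum of 2501 CPM against 981 CPM. D1-MSN markers had median sums of 1289 CPM in D1-IPs, 477 CPM in D2-IPs and 553 CPM in inputs. The D1-IPs were thus not free of D2-MSN transcripts. Markers of other cells also differed between the subtypes. Those of cortical excitatory neurons were higher in D1-IPs in 6 of 6 cases, with a summed level of 402 to 1428 CPM against 21.9 to 318 CPM in D2-IPs, and those of cholinergic interneurons were lower in 5 of 6 cases, with a median sum of 29.9 CPM against 133 CPM. None of these markers was at 0 in a library. Their part in the differences given below was not tested. In bulk libraries of this kind, fewer cells of a type and less RNA per cell cannot be told apart.

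Of the 10 genes, 6 lie on mouse chromosome 1 (GRCm38, the assembly called mm10; GENCODE vM21). *Rgs8*, from 153653025 to 153700323, and *Rgs16*, from 153740349 to 153745468, are neighbours on the plus strand, 40025 bases apart, with 0 protein-coding genes between them. *Rgs4* lies on the minus strand from 169741477 to 169747642, *Rgs2* on the minus strand from 143999338 to 144004161, *Rgs7* on the minus strand from 175059087 to 175492500 and *Rgs20* on the minus strand from 4909576 to 5070285. *Rgs3* lies on chromosome 4 from 62559847 to 62704001 (plus strand), *Rgs9* on chromosome 11 from 109225355 to 109298129 (minus), *Rgs10* on chromosome 7 from 128373621 to 128418758 (minus) and *Rgs14* on chromosome 13 from 55369732 to 55384687 (plus). Another annotated gene overlaps 6 of the 10, and for *Rgs3*, *Rgs8*, *Rgs16* and *Rgs20* it lies on the opposite strand. Whether the counting used the strand is not given in the sources used here, so reads of these pairs may be mixed.

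Promoters of 8 of the 10 genes were found in the RefSeq table used (GRCm38.p6). Those of *Rgs4* and *Rgs8* are shown because these were the 2 genes whose D1-IP and D2-IP libraries did not overlap, in opposite directions, and that of *Rgs2* because these 3 were the members with a TGACG half-site of the cAMP response element (CRE). Each is the 250 bases before the start site, read 5′ to 3′ on the strand of the gene. Capitals mark matches on either strand to 3 motifs, TGACG, the GC box GGGCGG and the TATA box TATAAA. The window of *Rgs4* is chr1:169747643-169747892, that of *Rgs8* is chr1:153652787-153653036, the first of its 3 start sites, and that of *Rgs2* is chr1:144004150-144004399.
Rgs4: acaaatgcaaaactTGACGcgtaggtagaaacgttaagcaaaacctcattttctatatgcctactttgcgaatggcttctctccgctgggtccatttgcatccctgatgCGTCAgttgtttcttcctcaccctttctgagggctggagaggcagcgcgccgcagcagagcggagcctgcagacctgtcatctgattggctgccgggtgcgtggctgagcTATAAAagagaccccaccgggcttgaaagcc
Rgs8: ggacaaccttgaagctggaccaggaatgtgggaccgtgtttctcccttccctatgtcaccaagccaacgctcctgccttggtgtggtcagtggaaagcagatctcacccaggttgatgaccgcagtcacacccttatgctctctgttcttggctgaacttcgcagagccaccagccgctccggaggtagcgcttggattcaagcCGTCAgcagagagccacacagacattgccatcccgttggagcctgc
Rgs2: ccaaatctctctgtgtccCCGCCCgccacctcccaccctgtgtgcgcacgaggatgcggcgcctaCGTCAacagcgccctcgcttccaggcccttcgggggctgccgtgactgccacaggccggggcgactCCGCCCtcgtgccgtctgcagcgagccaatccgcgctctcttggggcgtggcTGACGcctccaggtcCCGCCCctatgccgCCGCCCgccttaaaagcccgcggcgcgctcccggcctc

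The *Rgs4* promoter held 2 TGACG half-sites, which end 232 and 137 bases before the start, and a TATA box from 31 to 26 bases before it. The *Rgs8* promoter shown held 1 half-site, from 46 to 42 bases before the start, and neither of the other motifs. The windows of the other *Rgs8* start sites held none of these motifs. The GC-rich *Rgs2* promoter (72.4% G and C) held 2 half-sites and 4 GC boxes. Over all 32851 promoters of the table, 17.8% held TGACG in this window, 32.7% the GC box, 12.4% TATAAA and 1.55% the whole CRE, TGACGTCA, which was in none of the windows of the 8 genes. These matches describe the letters of the windows and show no binding.

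The RGS genes were read at very different levels in the IPs. Per length, as CPM per kb of merged exons, *Rgs4* was the highest in D1-IPs at 164 ± 8.63 (SD, n = 13), followed by *Rgs9* at 86.3 ± 10.2, *Rgs2* at 43.5 ± 2.61, *Rgs8* at 33.5 ± 3.13 and *Rgs14* at 33.0 ± 2.64. *Rgs10* (13.8 ± 1.70), *Rgs7* (11.5 ± 0.922) and *Rgs20* (10.8 ± 1.54) formed a middle group, *Rgs16* lay at 5.07 ± 0.798, and *Rgs3* was the lowest at 0.450 ± 0.0860. The ranges of *Rgs8* and *Rgs14* overlapped, as did those of *Rgs10* and *Rgs7* and of *Rgs7* and *Rgs20*. Whether these neighbours in the order differ in level was not tested. In D2-IPs *Rgs4* (127 ± 9.27, SD, n = 15) and *Rgs9* (111 ± 8.90) overlapped in range, as did *Rgs2* (51.0 ± 3.56) and *Rgs8* (43.9 ± 1.76). The order depends on the length used: per kb of the longest transcript, *Rgs9* (205 ± 16.4) stood above *Rgs4* (134 ± 9.76) in D2-IPs, and 5 of the 10 genes took another place in each subtype.

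**Figure D1:**
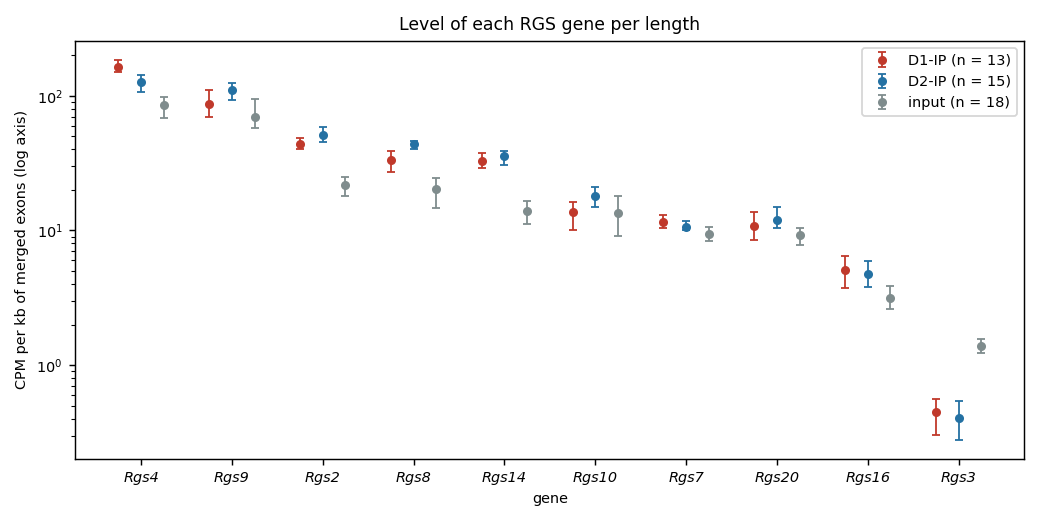
Level of each of the 10 RGS genes in CPM per kb of merged exons (log axis) in 13 D1-IPs, 15 D2-IPs and 18 inputs. Points are means and bars run from the lowest to the highest library; *Rgs4* lies highest and *Rgs3* lowest in all 3 kinds of library.

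**Figure D2:**
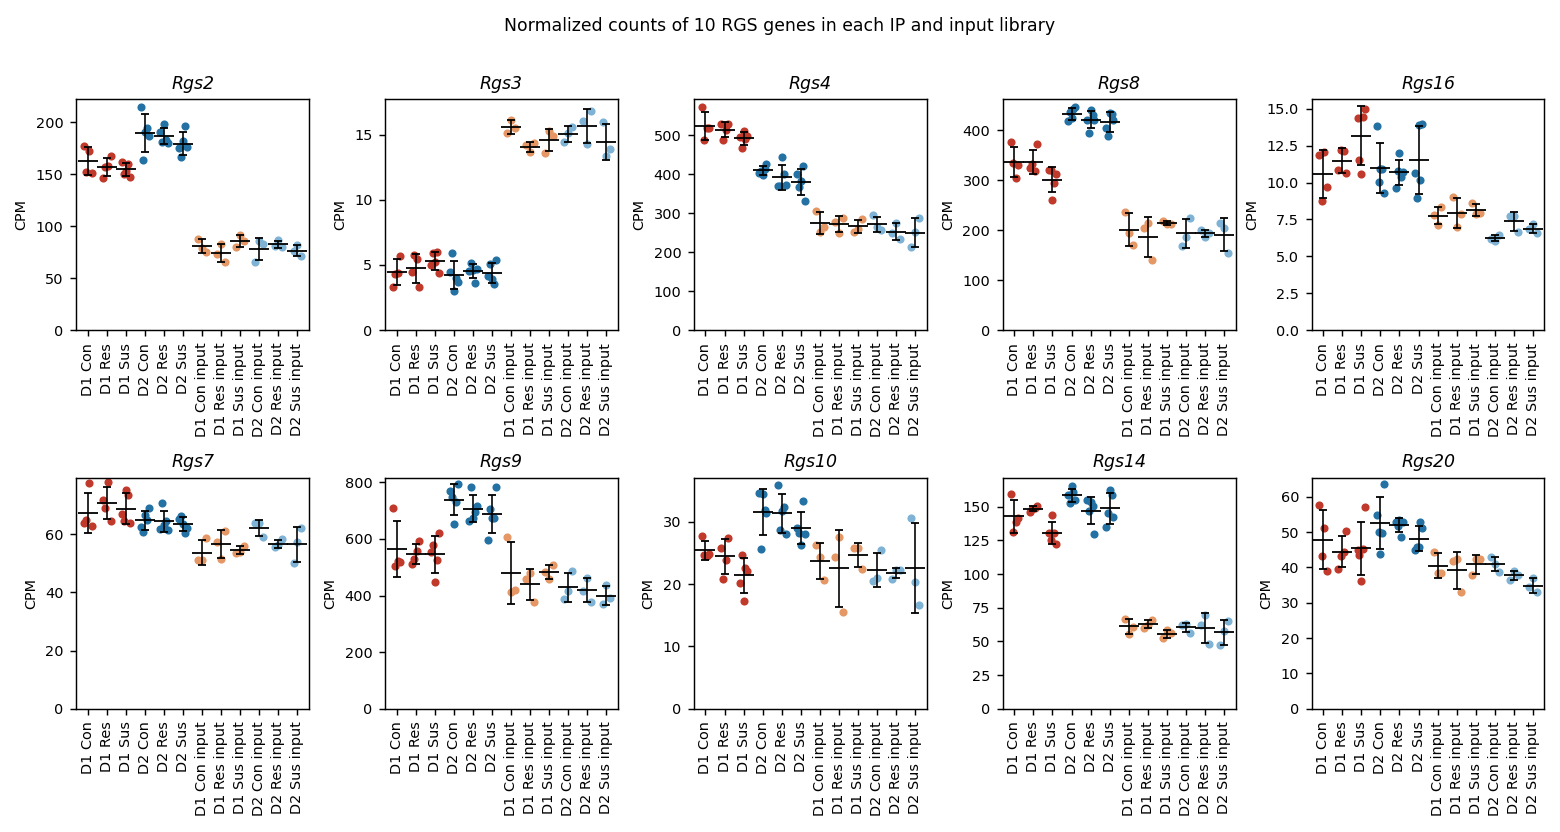
CPM of each of the 10 RGS genes (y axis, from 0) in every library of the 12 groups of IPs and inputs (x axis). Each point is a library, the horizontal mark is the group mean and the error bar is the SD; *Rgs4* is higher in D1-IPs, *Rgs8* is higher in D2-IPs, and *Rgs3* is about 15 CPM in inputs and about 5 CPM in IPs.

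The first comparison asked whether RGS transcripts on ribosomes differ between the MSN subtypes. None of the 10 genes was called between D1-IPs and D2-IPs, where a call needs a change beyond 1.5-fold together with an adjusted p below 0.05. This rule called 4.94% of 14224 genes as higher and 2.71% as lower in D1-IPs. By adjusted p alone (edgeR quasi-likelihood test, Benjamini-Hochberg), 7 of 10 differed by 1.09-fold to 1.32-fold, with *Rgs4* higher in D1-IPs and *Rgs2*, *Rgs8*, *Rgs9*, *Rgs10*, *Rgs14* and *Rgs20* higher in D2-IPs. Without the limit on the fold, 19.6% of all genes were higher and 21.3% lower in D1-IPs. The median log2 fold change of the 10 was -0.14, and that of all genes tested was -0.02.

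*Rgs4*, an R4 gene that acts on Gi and Gq, ranged from 442 to 548 CPM in D1-IPs (median 489) and from 318 to 426 CPM in D2-IPs (median 387). Every D1-IP lay above every D2-IP. The log2 fold change was 0.36 (SE 0.0344, edgeR adjusted p = 1.55e-09). *Rgs8*, another R4 gene, went the other way, with 248 to 359 CPM in D1-IPs (median 306) against 376 to 431 CPM in D2-IPs (median 408). Here every D1-IP lay below every D2-IP, by -0.40 on the log2 scale (SE 0.0348, edgeR adjusted p = 2.60e-10). Such a separation of the libraries, which *Rgs4* and *Rgs8* showed, was found for 2.82% of all genes.

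In the other R4 genes the libraries of the subtypes overlapped. *Rgs2* lay at 139.6 to 169 CPM in D1-IPs (median 149) against 158 to 206 CPM in D2-IPs (median 177), or -0.24 on the log2 scale (SE 0.0352, edgeR adjusted p = 2.62e-06). *Rgs16* (11.3 ± 1.77 CPM, SD, n = 13, and 10.7 ± 1.56 CPM, SD, n = 15) and *Rgs3* (4.63 ± 0.876 and 4.21 ± 0.750 CPM) did not pass the test, with log2 fold changes of 0.07 (SE 0.0751) and 0.12 (SE 0.103) and edgeR adjusted p of 0.51 and 0.35. Within R4, then, *Rgs4* and *Rgs8* differed between the subtypes in opposite directions.

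Of the R7 genes, *Rgs9* ranged from 427 to 679 CPM in D1-IPs (median 503) and from 577 to 765 CPM in D2-IPs (median 683). The log2 fold change was -0.38 (SE 0.0525, edgeR adjusted p = 1.23e-06), and D1 Con replicate 1, at 679 CPM, was the D1-IP that reached furthest into the range of the D2-IPs. *Rgs7* averaged 65.8 ± 5.33 CPM in D1-IPs against 61.8 ± 2.83 CPM in D2-IPs, and its log2 fold change of 0.09 (SE 0.0372) missed the threshold (edgeR adjusted p = 0.054). It passed with RLE size factors, DESeq2 and both other filters on low counts, with log2 fold changes from 0.09 to 0.10.

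*Rgs10*, an R12 gene best known from microglia, ranged from 16.5 to 26.4 CPM in D1-IPs (median 23.4) and from 24.7 to 34.4 CPM in D2-IPs (median 30.3), or -0.38 on the log2 scale (SE 0.0553, edgeR adjusted p = 2.13e-06). Microglial markers summed to 9.83 to 16.0 CPM in D1-IPs against 13.0 to 20.2 CPM in D2-IPs, against 202 to 253 CPM in inputs, and 1 of 6 was called lower in D1-IPs. Their part in the *Rgs10* difference was not tested. *Rgs14* averaged 133 ± 10.9 CPM in D1-IPs against 146 ± 9.22 CPM in D2-IPs, which is -0.12 on the log2 scale (SE 0.0333, edgeR adjusted p = 0.0041). The RZ gene *Rgs20* averaged 43.7 ± 6.25 and 48.9 ± 4.76 CPM, or -0.16 on that scale (SE 0.062, edgeR adjusted p = 0.0393), and its adjusted p rose above 0.05 when any of 15 of the 28 libraries was left out, without the filter on low counts (0.057), with a mean of at least 50 counts (0.051) and with a replicate block (0.061).

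**Figure D3:**
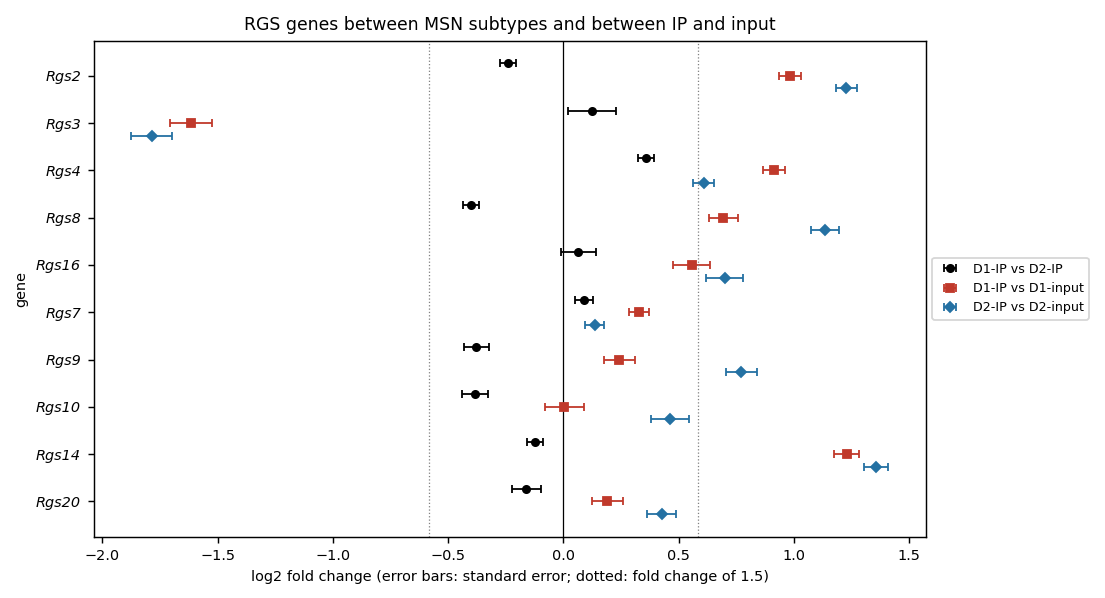
Log2 fold change of the 10 RGS genes (rows) between D1-IPs and D2-IPs (black) and between IP and input in each line (red, D1; blue, D2); bars are standard errors and dotted lines mark a fold change of 1.5. All black points lie between the dotted lines, *Rgs3* is the gene below input, and *Rgs14* and *Rgs2* lie furthest above it.

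The subtypes differed in the same way within each stress group for the leading genes. In controls 5 of 10 passed by adjusted p alone, as did 5 in resilient and 6 in susceptible mice, where 14%, 17.5% and 17.6% of all genes did. None passed the limit of 1.5-fold, which 4.98%, 5.52% and 5.55% of all genes did with an adjusted p under 0.05. *Rgs4* was higher in D1-IPs of each group, with log2 fold changes of 0.34 in Con, 0.38 in Res and 0.36 in Sus (edgeR adjusted p = 0.00021, 5.10e-05 and 4.59e-05). *Rgs8* was lower, by -0.38, -0.33 and -0.48 on the log2 scale (edgeR adjusted p = 6.92e-05, 0.00029 and 5.18e-07), and *Rgs2*, *Rgs9* and *Rgs10* were also lower in each group. *Rgs14* passed in susceptible mice, by -0.21 on the log2 scale (edgeR adjusted p = 0.009), and not in Con (-0.16, edgeR adjusted p = 0.062) or Res (0.00, edgeR adjusted p = 0.98). The tests of whether these values differ between the stress groups are given with the stress comparisons.

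The next comparison set the IPs against the inputs of their line, where 18 of the 28 IPs had an input of their own tissue pool. *Rgs2*, *Rgs4*, *Rgs8* and *Rgs14* were enriched in the IPs of both lines, and *Rgs3* was depleted in both. The IPs hold more than MSN transcripts. Cortical excitatory neuron markers had median sums of 755 CPM in D1-IPs, 200 CPM in D2-IPs and 517 CPM in inputs. Those of cholinergic interneurons were 29.9, 133 and 106 CPM. Which cells carried the RGS transcripts was not tested. In the D1 line 4 of 10 were called higher and 1 lower in the IPs, where 13.8% and 29.3% of 15404 genes were. In the D2 line 6 were called higher and 1 lower, where 12.8% and 30.8% of genes were. The median log2 fold change of the 10 was 0.44 in D1 and 0.66 in D2, while that of all genes was -0.04 and -0.08. The libraries of IP and input did not overlap for 6 of the 10 genes in D1 and 8 in D2, as for 48.3% and 44.3% of all genes.

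*Rgs14* was the most enriched of the 10, ranging in the D1 line from 122 to 159 CPM on ribosomes (median 142) and from 52.6 to 67.0 CPM in input (median 60.4), and, in the D2 line, at 130.04 to 165 CPM on ribosomes against 47.2 to 70.0 CPM in input. Its log2 fold changes were 1.23 (SE 0.053, edgeR adjusted p = 1.36e-23) and 1.36 (SE 0.0523, edgeR adjusted p = 2.69e-25). *Rgs2* followed, with 0.99 (SE 0.0479) in D1 and 1.23 (SE 0.0473) in D2, from 79.96 ± 7.95 CPM in D1-inputs and 79.0 ± 6.76 CPM in D2-inputs (SD, n = 9 each). *Rgs4* was called in both lines, at 0.91 (SE 0.0474) in D1 and 0.61 (SE 0.0458) in D2, and *Rgs8* too, at 0.70 (SE 0.0617) and 1.14 (SE 0.0613). These 4 genes were higher in every IP than in every input of their line.

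*Rgs9* and *Rgs16* were called in the D2 line and not in the D1 line. In the D1 line *Rgs9* averaged 552 ± 64.9 CPM on ribosomes and 467 ± 65.9 CPM in input, or 0.24 on the log2 scale (SE 0.0672), while the D2 line had 710.5 ± 56.9 and 416 ± 39.6 CPM, or 0.77 on the log2 scale (SE 0.0666). *Rgs16* had log2 fold changes of 0.56 (SE 0.0801) and 0.70 (SE 0.0797), on either side of the limit of 1.5-fold. The difference between the lines in this enrichment was not tested. *Rgs7* (0.33 and 0.14) and *Rgs20* (0.19 and 0.43) passed the adjusted p in both lines below the limit of 1.5-fold. By adjusted p alone 9 of 10 genes passed in D1 and 10 of 10 in D2, where 81.9% and 82.7% of all genes did. Upper quartile normalization ended this for *Rgs20* and *Rgs9* in D1 (edgeR adjusted p = 0.25 and 0.072) and for *Rgs7* in D2 (0.21), and so did the control libraries alone (0.083, 0.13 and 0.36) and, for *Rgs20* and *Rgs7*, a mean of at least 50 counts (0.13 and 0.17). *Rgs10* averaged 23.6 ± 2.91 CPM on ribosomes of the D1 line and 23.6 ± 3.67 CPM in their input, with a log2 fold change of 0.00 (SE 0.0842) in D1 and 0.46 (SE 0.0826) in D2.

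*Rgs3* was the member depleted from the IPs of both lines. In the D1 line it ranged from 3.28 to 6.02 CPM on ribosomes (median 4.96) and from 13.6 to 16.2 CPM in input (median 14.9), and in the D2 line from 3.03 to 5.89 CPM and from 13.4 to 16.8 CPM. No IP reached the level of an input. The log2 fold changes were -1.62 (SE 0.0918, edgeR adjusted p = 1.38e-19) in D1 and -1.79 (SE 0.0887, edgeR adjusted p = 1.51e-21) in D2. Over the same libraries, markers of astrocytes, oligodendrocytes, microglia and endothelial cells were lower in IPs, with 6 of 6, 6 of 6, 6 of 6 and 4 of 4 called in each line and median log2 fold changes from -4.42 to -2.97 in D1. Markers of PV, SST and NPY interneurons had median sums of 152 CPM in D1-IPs, 155 CPM in D2-IPs and 302 CPM in inputs. The cortical and cholinergic sums given above moved in different directions in D1-IPs and D2-IPs. Which of these cells carried *Rgs3* was not tested. Between the inputs of the lines none of the 10 genes was called, where 0.0266% of 15063 genes were. The lowest p was that of *Rgs16*, at 0.22 on the log2 scale (edgeR adjusted p = 0.78), and 2 of 10 genes had an unadjusted p under 0.05, as did 4.82% of all genes.

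Over the 12 group means of IPs and inputs, *Rgs3*, *Rgs14* and *Rgs2* had the widest range, 1.91, 1.51 and 1.36 on the log2 scale. The genes whose centred group means lay nearest to those of *Rgs3* were *Nckap5*, *Paqr8* and *Tgfbr1*, at a root mean square distance of 0.0692 to 0.0728 (log2 CPM). Those nearest to *Rgs14* were *Dact2*, *2010300C02Rik* and *Ptk2b*, at 0.0426 to 0.0448, and those nearest to *Rgs2* were *Cyld*, *Tle4* and *Tmem158*, at 0.0348 to 0.0488. The range is set mainly by IP against input, so this likeness is a likeness in that.

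Among 13 other genes with an RGS domain, 8 passed the filter in the IPs and 0 were called between D1-IPs and D2-IPs, and 9 passed it over IPs and inputs. Against input, 3 of the 9 were called lower in D1-IPs and 4 in D2-IPs, where 29.3% and 30.8% of all genes were. None was called higher, where 13.8% and 12.8% of all genes were. *Rgs5*, a gene of pericytes, had log2 fold changes of -3.84 (SE 0.0942) in D1 and -3.54 (SE 0.0875) in D2. *Rgs11*, an R7 gene, had -3.11 (SE 0.0906) and -2.57 (SE 0.0843), and *Rgs22* had -2.30 (SE 0.300) and -2.06 (SE 0.286). *Rgs6*, the remaining R7 gene, was called in D2 alone, at -0.98 (SE 0.0733) against -0.39 (SE 0.0751) in D1. The median log2 fold changes of these 9 genes were -0.37 and -0.32.

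Of 5 R7 partners, 4 passed the filter. *Gnb5*, which encodes the beta subunit that R7 proteins need, was called higher in IPs of both lines, with log2 fold changes of 1.07 (SE 0.0400) in D1 and 1.57 (SE 0.0400) in D2. *Gpr158*, an orphan receptor that anchors RGS7, was called in D2 (0.59, SE 0.0385). Neither was called between the subtypes, where *Gnb5* was lower in D1-IPs by less than 1.5-fold (log2 fold change -0.45, edgeR adjusted p = 1.88e-11). Of 12 G alpha subunits 1 was called between D1-IPs and D2-IPs, *Gna14* of the Gq class, with a log2 fold change of 3.14 (SE 0.318). Of 14 G beta and gamma subunits 12 were tested and 3 called, all higher in D1-IPs: *Gnb4* (0.92, SE 0.0464), *Gng11* (0.88, SE 0.338) and *Gng2* (0.75, SE 0.0804). Of 7 immediate early genes 0 were called between the subtypes.

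The stress comparisons asked whether social defeat moved RGS transcripts within a subtype. They were counted at an unadjusted p under 0.05, and no RGS gene reached an adjusted p under 0.05 in any of them. In D1-IPs 4 of 10 genes were counted between susceptible and control mice, where 5.34% of all genes were: *Rgs8*, *Rgs10* and *Rgs14* were lower and *Rgs16* was higher in Sus. Between Sus and Res 2 of 10 were counted (4.23% of all genes), *Rgs8* and *Rgs14*, both lower in Sus. Between Res and Con 0 of 10 were (2.11% of all genes). The comparisons of Sus and of Res with Con share the 4 D1 Con libraries, and both comparisons of Sus share the 5 D1 Sus libraries.

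*Rgs8* lay at 290.0, 315, 318 and 359 CPM in the 4 D1 Con libraries, at 303, 311, 316 and 356 CPM in D1 Res and at 248, 278, 298, 304 and 306 CPM in D1 Sus. The susceptible libraries were the lowest on average, and their range overlapped those of the other groups. The log2 fold change of Sus was -0.16 against Con (SE 0.0611, edgeR adjusted p = 0.85) and -0.17 against Res (SE 0.0611, edgeR adjusted p = 0.999).

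*Rgs14* lay at 125, 133, 135 and 152 CPM in D1 Con, at 140.1, 141, 143 and 144 CPM in D1 Res and at 117, 119, 123, 124 and 137 CPM in D1 Sus. The lowest Res library (140.1 CPM) lay just above the highest Sus library (137 CPM). The share of all genes with such a separation was not computed. The log2 fold change of Sus was -0.13 against Con (SE 0.0587, edgeR adjusted p = 0.85) and -0.19 against Res (SE 0.0587, edgeR adjusted p = 0.999).

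*Rgs10* lay at 23.4, 23.4, 23.7 and 26.4 CPM in D1 Con and at 16.5, 19.3, 21.03, 21.5 and 23.4 CPM in D1 Sus, or -0.25 on the log2 scale (SE 0.0978, edgeR adjusted p = 0.85). The highest Sus library was level with the lowest Con libraries, and the other 4 lay below all of them. *Rgs16*, an R4 gene that is induced by activity in many cells, lay at 8.32, 9.27, 11.3 and 11.6 CPM in D1 Con and at 10.1, 10.95, 13.7, 13.7 and 14.3 CPM in D1 Sus, or 0.31 on the log2 scale (SE 0.132, edgeR adjusted p = 0.85). The neighbouring genes *Rgs8* and *Rgs16* thus had opposite signs in this comparison.

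The 4 calls between D1 Sus and D1 Con depended on single libraries. *Rgs16* was no longer counted without D1 Con replicate 2 or 4 or without D1 Sus replicate 1, 4 or 5. *Rgs14* was no longer counted without D1 Con replicate 1 or 4 or without D1 Sus replicate 2 or 5. *Rgs8* and *Rgs10* were each lost without D1 Con replicate 1 or D1 Sus replicate 3. Without D1 Con replicate 1 a single gene was counted, and without D1 Sus replicate 3 or replicate 5 there were 2, as in a model of the D1 Con and D1 Sus libraries alone. D1 Con replicate 1 had the lowest summed cortical markers of the D1 Con libraries (402 CPM, the others 740.0 to 1101). D1 Sus replicate 3 had the highest of the D1 Sus libraries (1428 CPM). The others, with D1 Sus replicate 5 among them, lay at 649 to 934 CPM. Over the group, D2-MSN markers summed to 2370 to 3471 CPM in D1 Con and 2061 to 2607 CPM in D1 Sus, and 4 of 4 were lower in Sus at an unadjusted p under 0.05. The 6 cortical markers had a median log2 fold change of 0.31 with 0 of 6 at that threshold. Their part in the RGS values was not tested.

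In D2-IPs 0 of 10 RGS genes were counted in any comparison of stress groups, where 3.68% of all genes were between Sus and Con, 3.02% between Res and Con and 1.66% between Sus and Res. The log2 fold changes ran from -0.12 to 0.07 for Sus against Con, from -0.11 to 0.11 for Res against Con and from -0.11 to 0.11 for Sus against Res. *Rgs14* came nearest, at -0.11 for Res against Con (edgeR adjusted p = 1.00).

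Whether a stress difference itself differed between D1 and D2 was tested with an interaction term. For Sus against Con 0 of 10 genes passed at an unadjusted p under 0.05 (1.82% of all genes), and for Res against Con 0 of 10 (2.36%). For Sus against Res 1 of 10 passed (2.03%), *Rgs14*, whose log2 fold change was -0.19 in D1-IPs and 0.02 in D2-IPs, a difference of -0.21 (SE 0.0808, edgeR adjusted p = 1.00). The 3 R12 and R4 genes lower in D1 Sus than in D1 Con, *Rgs8*, *Rgs10* and *Rgs14*, had log2 fold changes of -0.06, -0.12 and -0.09 in D2, and the tests of the difference gave edgeR p of 0.23, 0.34 and 0.60. In the inputs, with both lines in a model, 0 of 10 genes were counted between Sus and Con (4.48% of 14716 genes), Res and Con (3.22%) or Sus and Res (5.56%), and no log2 fold change exceeded 0.14 in size.

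**Figure D4:**
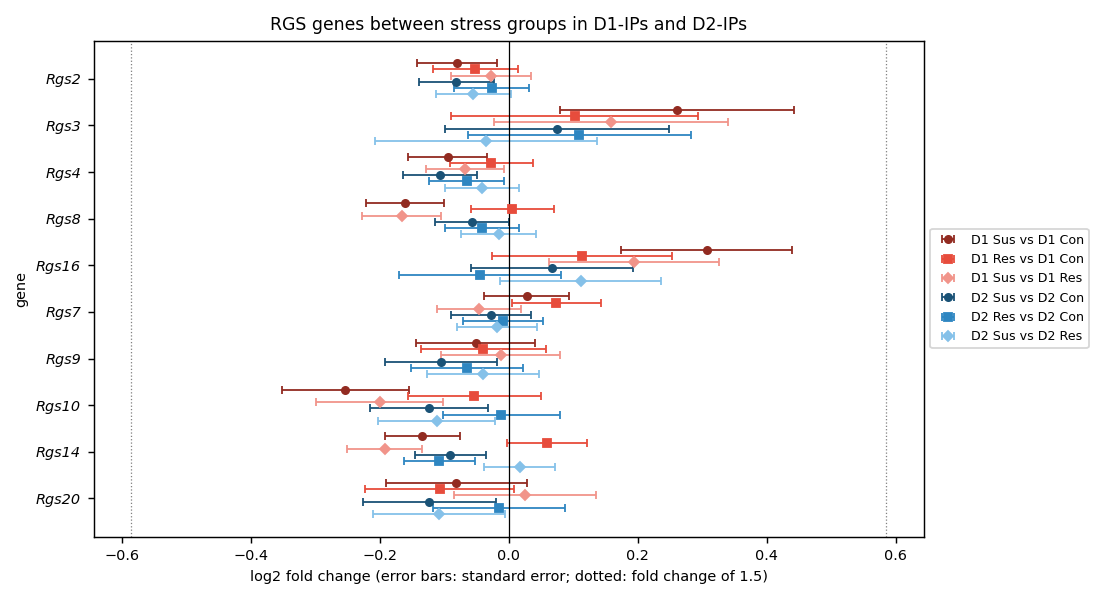
Log2 fold change of the 10 RGS genes (rows) in 6 comparisons of stress groups, 3 in D1-IPs (reds) and 3 in D2-IPs (blues); bars are standard errors and dotted lines mark a fold change of 1.5. All points lie between -0.25 and 0.31, and the largest belong to *Rgs16*, *Rgs3* and *Rgs10* in D1 Sus against D1 Con.

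The last comparison set the D1-IPs labelled Sirt1-KO against D1 Con. The paper does not describe the libraries labelled Sirt1-KO, and no age is given for them. Differences from D1 Con in age, handling or sequencing cannot be told apart from the label. *Sirt1*, the targeted deacetylase gene, did not check the label: it was at 13.1, 14.4, 14.8 and 16.6 CPM in D1 Con and 10.2, 13.2, 15.2 and 16.2 CPM in the libraries labelled Sirt1-KO, a log2 fold change of -0.10 (SE 0.133, edgeR adjusted p = 0.77). Which exons were floxed is not given in the sources used here, and a count over the whole gene does not show the loss of an exon. None of the 10 RGS genes was called by the rule of 1.5-fold and adjusted p, which called 0.279% of 13626 genes as higher and 0.47% as lower. By adjusted p alone 1 was lower, *Rgs10*, and 0 were higher (1.04% and 0.616% of all genes). At an unadjusted p under 0.05, 5 of 10 were lower (8.11% of all genes), *Rgs2*, *Rgs4*, *Rgs8*, *Rgs10* and *Rgs16*, 4 of them from R4. The median log2 fold change of the 10 was -0.28, and that of all genes was 0.00.

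*Rgs10* lay at 23.2, 23.3, 23.7 and 26.2 CPM in D1 Con and at 14.5, 16.3, 16.5 and 20.6 CPM in the libraries labelled Sirt1-KO. The groups did not overlap. The log2 fold change was -0.51 (SE 0.102, edgeR adjusted p = 0.0356), and the call at an adjusted p under 0.05 was lost without any of the 4 D1 Con libraries or without replicate 1, 3 or 4 of those labelled Sirt1-KO, though the direction held. Without replicate 5 the change was past 1.5-fold.

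*Rgs8* lay at 287, 314, 316 and 355 CPM in D1 Con and at 208, 213, 245 and 309 CPM in the libraries labelled Sirt1-KO, or -0.39 on the log2 scale (SE 0.114, edgeR adjusted p = 0.11). Replicate 5 was the high library among them and lay within the D1 Con range. *Rgs2* lay at 144, 144, 163 and 167 CPM against 114, 116, 132 and 139.7 CPM, or -0.30 on the log2 scale (SE 0.0789, edgeR adjusted p = 0.081). *Rgs4* lay at 461, 491, 492.7 and 542 CPM against 391, 422, 423 and 455 CPM, or -0.23 on the log2 scale (SE 0.0638, edgeR adjusted p = 0.087). *Rgs2* and *Rgs4* were lower in every library labelled Sirt1-KO than in every D1 Con library, as were *Rgs10* and *Rgs16*. Over all genes 9.55% had groups that did not overlap.

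*Rgs16* averaged 10.0 ± 1.54 and 7.83 ± 0.410 CPM (SD, n = 4 each), or -0.36 on the log2 scale (SE 0.12, edgeR adjusted p = 0.15). The R7 gene *Rgs9* (534 ± 92.4 and 445 ± 80.8 CPM) and the RZ gene *Rgs20* (45.3 ± 7.77 and 36.8 ± 10.0 CPM) differed by -0.27 and -0.31 on the log2 scale, with edgeR adjusted p of 0.34 and 0.39. *Rgs7*, *Rgs14* and *Rgs3* had log2 fold changes of 0.12, 0.08 and 0.03 and edgeR adjusted p of 0.47, 0.61 and 0.96. None of the 8 other RGS-domain genes tested reached an unadjusted p under 0.05, and their median log2 fold change was -0.05.

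Markers moved beside these values. The cortical excitatory neuron markers summed to 380, 704, 715 and 1043 CPM in D1 Con and to 855, 1276, 1496 and 1611 CPM in the libraries labelled Sirt1-KO, and 6 of 6 were higher at an unadjusted p under 0.05, 0 of 6 at an adjusted p under 0.05. The lowest sum among those libraries was in replicate 5, which of these 4 libraries also had the highest *Rgs2*, *Rgs8*, *Rgs9*, *Rgs10* and *Rgs20* and the lowest *Rgs4*. Replicate 5 had the lowest *Sirt1* as well (10.2 CPM, the others 13.2 to 16.2 CPM) and the fewest counts on genes (22174187) of these libraries. The part of *Sirt1* level and depth in the RGS values was not tested. D2-MSN markers summed to 2255 to 3283 CPM in D1 Con (median 2397) and 1629 to 2577 CPM in the libraries labelled Sirt1-KO (median 1799). MSN markers of either type summed to 5042 to 6514 CPM in D1 Con and 3789 to 5365 CPM in the libraries labelled Sirt1-KO, with a median log2 fold change of -0.34 and 4 of 5 at an unadjusted p under 0.05. D1-MSN markers, those of the tagged cells, summed to 1192 to 1469 CPM and 896 to 1122 CPM, with 4 of 4 lower at that threshold. Cholinergic interneuron markers summed to 24.2 to 29.1 and 14.1 to 23.7 CPM, with 4 of 5 lower at that threshold. Those of PV, SST and NPY interneurons summed to 121 to 153 and 154 to 188 CPM, with 3 higher and 2 lower. At an adjusted p under 0.05 these counts were 1, 1 and 2 genes. The sums of these 3 lists did not overlap between the groups. The part of these cells in the RGS values was not tested.

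**Figure D5:**
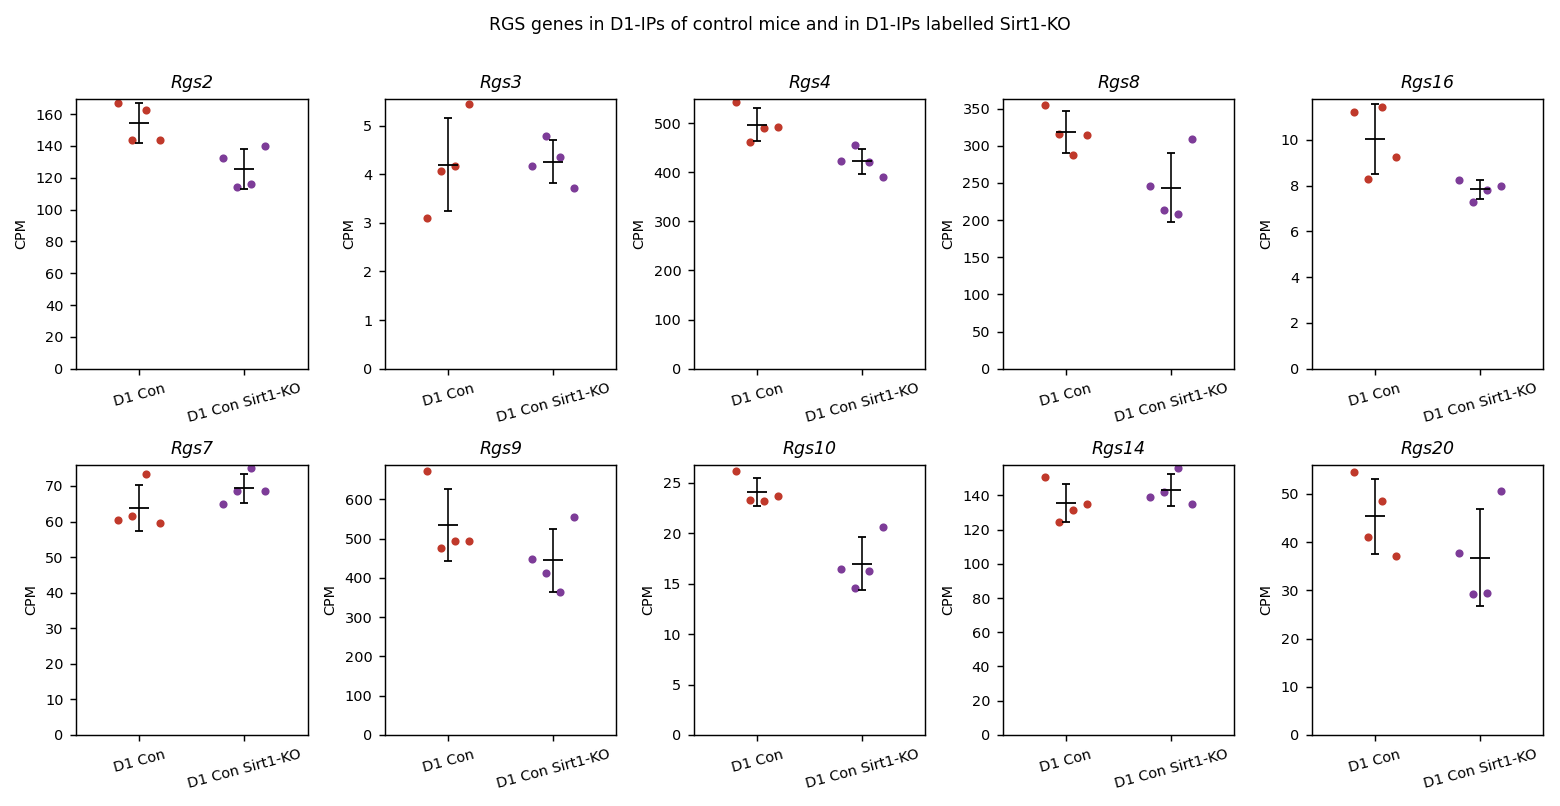
CPM of each of the 10 RGS genes (y axis, from 0) in 4 D1 Con libraries and 4 D1-IP libraries labelled Sirt1-KO (x axis). Points are libraries, horizontal marks are means and error bars are SD; *Rgs2*, *Rgs4*, *Rgs10* and *Rgs16* do not overlap between the groups.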

How the data were processed

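Groups follow the labels. Per the labels and the paper's methods, the authors made strand-marking libraries from poly-A RNA, trimmed reads with cutadapt, aligned with STAR (mm10) and, for all but the Sirt1-KO libraries, whose counter is not named, quantified with HTSeq. Versions, annotation and strand setting are not given in the sources used here. The deposited values are raw counts per gene symbol. Entries naming no gene held 21.5% ± 2.83 (SD, n = 28) of the IP reads and 37.8% ± 1.16 (SD, n = 18) of the input reads, and were left out, as were 2 columns that matched no sample. The paper names several defeat batches and sequencing sets but not their libraries, so no within-batch value was possible. P-values measure the spread between these pools of mice.

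CPM and tests came from edgeR 4.0.16 in R 4.3.3 (TMM, quasi-likelihood F test, filterByExpr at its settings of 10 counts and 15 in total). Separate models held the 28 IPs (14224 genes), the 46 IPs and inputs (15404), the 18 inputs for line (15063) or for stress with line added (14716), and the 8 libraries for Sirt1-KO (13626). CPM of IPs use factors of the 28 IPs where IPs alone are compared and of all 46 libraries otherwise. P-values were adjusted by Benjamini-Hochberg over each model. Following the paper's thresholds, stress differences within a subtype were counted by unadjusted p (under 0.05), and differences between D1-IPs and D2-IPs by adjusted p together with a 1.5-fold change. The paper gives no threshold for the other comparisons. The rule for stress was also used for interactions and for stress in inputs. The rule for subtypes was also used for IP against input, for the lines and for Sirt1-KO. Standard errors were derived from the F statistic.

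Alternatives were RLE and upper quartile normalization, DESeq2 1.42.0, no filter (at least 1 count) or only genes averaging 50 counts or more, models of fewer libraries, a replicate block, other thresholds, each library left out, and length by the longest transcript. An IP and its input share a homogenate by the labels, so the pool pairs them, although their residuals were hardly correlated (mean r = 0.0473 over 18 pairs). The scripts were tested on simulated data with 200 changed genes. The 10 genes and all lists were chosen with earlier results of these data known. All 10 are described, and genes of other lists are named where called, at most the 4 with the largest change per list, with *Gnb5* between subtypes named after its value was seen. Likeness is the root mean square difference of centred group means of log2 CPM (prior count 2). Positions are from GENCODE vM21 and promoters from RefSeq. Figures used matplotlib 3.10.9.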

Additional observations from a re-analysis of the deposited data

Results flagged for a closer look

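In 70 tests of a library apart from the rest of its group (10 genes in 7 groups of 4 or 5 IPs), 3 libraries stood apart by Dixon's criterion, where chance flags about 5% of groups. All 3 are the highest of the 4 D1 Con libraries. *Rgs9* was at 679 CPM and *Rgs10* at 26.4 CPM in D1 Con replicate 1, where the other libraries lay between 479 and 498 CPM and between 23.4 and 23.7 CPM. *Rgs7* was at 74.1 CPM in D1 Con replicate 3, where the others lay between 59.7 and 62.0 CPM.

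Of 30 tests of whether a stress difference of an RGS gene itself differed between D1-IPs and D2-IPs, 1 had an unadjusted p under 0.05. Over all genes, 1.82% passed for Sus against Con, 2.36% for Res against Con and 2.03% for Sus against Res. The RGS gene was *Rgs14*, between Sus and Res, with a difference of -0.21 on the log2 scale (edgeR adjusted p = 1.00).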

How the results depend on the processing

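Of 304 values of single RGS genes under alternatives that keep all libraries, 270 kept direction and side of the threshold, 13 fell below it, 13 rose above it, 5 changed sign and 3, the orders of level, moved. Of 893 with a library left out these numbers were 837, 37, 13 and 6. The sign changes were in values near 0. *Rgs10* between D1-IPs and D1-inputs was -0.024 with RLE, -0.024 with DESeq2, -0.081 with a mean of at least 50 counts, -0.10 with upper quartile normalization and -0.0062 with the pool as a block, and -0.059 to 0.073 with a library left out. *Rgs3* in Sirt1-KO ranged from -0.090 to 0.18 with a library left out.

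With no limit on the fold change, 7 genes passed between D1-IPs and D2-IPs, 5, 5 and 6 within Con, Res and Sus, 9 between D1-IPs and D1-inputs (81.9% of all genes did) and 1 in Sirt1-KO. With adjusted in place of unadjusted p, 0 were counted for D1 Sus against Con, D1 Sus against Res and the interaction of Sus against Res. A model of the compared libraries alone counted 2 for D1 Sus against Con. A mean of at least 50 counts gave 1 for the interaction of Res against Con. Ordered by the longest transcript, 5, 5 and 8 genes changed place in D1-IPs, D2-IPs and inputs.

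Same-numbered IPs of different groups were hardly correlated (mean r = 0.0675, from -0.178 to 0.311 over 66 pairs). Those with other numbers had a mean r of -0.0171 over 260 pairs. IP and input of the same pool, a known pairing, gave only 0.0473, so this check cannot show whether same-numbered libraries share a batch. The replicate block counted 1 gene for D2 Sus against Con (*Rgs4*), 1 for D2 Res against Con (*Rgs14*), 1 for the interaction of Res against Con (*Rgs14*) and, on the 3 shared numbers of Sirt1-KO, 1 at 1.5-fold (*Rgs10*) and 7 by adjusted p. With the pool as a block the counts against input stayed at 5 and 7. DESeq2 gave 4 genes by adjusted p in Sirt1-KO. The shares of all genes under these alternatives, or with a library left out, were not computed. These counts therefore do not show whether RGS genes changed more than other genes did.

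With each library left out, counts ran from 1 to 4 for D1 Sus against Con and from 1 to 3 for D1 Sus against Res (1 without D1 Res replicate 4 or D1 Sus replicate 3), from 0 to 2 for D2 Sus against Con, and from 0 to 1 for D1 Res against Con, D2 Res against Con, the interaction of Res against Con, and Res against Con and Sus against Res in inputs. By adjusted p they ran from 3 to 6 for D1 Con against D2 Con. In Sirt1-KO they ran from 0 to 1 at 1.5-fold (1 without replicate 5) and from 0 to 4 by adjusted p (4 without replicate 5). The causes were not tested. Depth was 18384265 counts or more, and the gene with the largest relative spread was *Rgs3* in D1-IPs (CV 19.1%) and D2-IPs (17.7%) and *Rgs10* in D1-inputs (15.5%) and D2-inputs (17.5%).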
